A study of Mus musculus with 5 samples.

Results

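Glycolysis enzymes and hypoxia response genes were described in dorsal pancreatic buds of mouse embryos that lacked the transcription factor Ptf1a. The members are 42 named genes in 4 groups by role: 16 glycolytic enzymes, 8 genes that handle pyruvate and lactate or set the rate of glycolysis, 7 genes of oxygen sensing and 11 other targets of the hypoxia response. Each gene was represented by the probe set annotated to that gene alone with the highest mean signal, which gave 39 measured members among 18194 genes. The glycolytic enzymes Gpi1 and Eno1 and the mitophagy receptor gene Bnip3l had no probe set annotated to them alone and were not analysed here.

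The 3 null pools were homozygous mutants and the 2 control pools were Ptf1a heterozygotes, so the controls also carried a mutant copy and no wild-type bud was measured. All embryos were C57BL/6J, were taken at E10.5 (embryonic day) from matings between heterozygotes, and received no agent. Each Affymetrix array was hybridised with twice-amplified RNA from a pool of 3 buds from which the surrounding mesenchyme had been dissected. The labels name the mouse line but do not give the allele's structure or the litters, so p-values measure the spread between pools. Values are log2 signals after quantile normalisation. A background level of 3.03 to 3.29 was set on each array from control probe sets for bacterial genes. With 5 arrays, every value is of limited precision.

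Ptf1a signal (probe set 1419424_at) was 7.10 and 7.33 in the heterozygote pools and 5.21, 6.07 and 5.00 in the null pools, so all null values lay below both heterozygote values. Since the altered stretch of the gene is not named, this probe set may not check the genotype. The bud epithelium markers Pdx1, Sox9 and Mnx1 were above background on all arrays, and 15 of 16 such markers were. Cpa1, an early exocrine marker, was above background in the heterozygotes alone. Arrays of the same genotype correlated at 0.849 to 0.854 across probe sets, and arrays of different genotype at 0.838 to 0.862. Xist, the transcript of the inactive X chromosome, had signals of 0.25 on heterozygote array 1 and 2.27 on null array 1, against 10.58, 11.61 and 11.25 on heterozygote array 2 and null arrays 2 and 3. Both genotypes thus held a pool with Xist below background and a pool with high Xist.

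Glycolysis splits glucose into pyruvate in the cytosol, and lactate dehydrogenase then turns pyruvate into lactate when mitochondria do not take it up. In low oxygen, prolyl hydroxylases (the Egln enzymes) stop marking the HIF alpha subunits for destruction by the Vhl ubiquitin ligase. The stabilised subunit pairs with Arnt, binds a short core motif in DNA and raises the transcription of most glycolytic enzymes together with genes for blood vessel growth, collagen hydroxylation, mitophagy and pH control. Early embryonic tissues are known for a high rate of glycolysis, before their blood supply is complete.

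No member passed the test. Of the 38 members with an adjusted p (Gapdh was measured by control probe sets, which stay out of the adjustment), 0 were called at an adjusted p under 0.05 by limma with a signal-dependent prior variance, called the trended fit here, or by limma with a constant prior variance, the untrended fit. Over all 45037 probe sets tested the trended fit called 8, which is 0.0178%, or 6 of 18193 genes with 1 probe set each (0.0330%), and the untrended fit called 0. The lowest adjusted p of a member was 0.975 in the trended fit and 0.730 in the untrended fit. With no adjustment, p was under 0.05 in the trended fit for 4 members higher in nulls (Pgk1, P4ha1, Bnip3 and Ankrd37) and for 1 lower (Car9), 10.3% and 2.56% of the 39, beside 2.52% and 1.95% of all genes. The untrended fit had 2 such members, Ankrd37 and Car9, where 4.48% of all genes had such a p in either direction.

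Most members nevertheless leaned toward the nulls. The null mean was higher for 27 of 39 members (69.2%), beside 49.1% of all genes. The median log2 change, null minus heterozygote, was 0.19 over the members and -0.012 over all genes. Groups did not overlap with all nulls above for 9 members (23.1%, beside 9.82% of all genes): Hk1, Hk2, Pfkm, Pgk1, Eno2 and Pkm among glycolytic enzymes, Arnt, P4ha1 and Ankrd37. They did not overlap with all nulls below for 1 member, Car9 (2.56%, beside 10.1%). The change exceeded the range within each genotype for 4 members (Hk2, Pgk1, Ankrd37 and Car9), where 10.1% of all genes did so. Changes were small for most members: 27 of 39 differed by less than 0.5 on the log2 scale, as did 60.2% of all genes and 81.2% of genes above background on all arrays. With each array centred on its median, 20 of 39 members were higher in nulls and their median was 0.085, beside -0.095 for all genes. The count thus depends on the scaling, while the members' median lay above that of all genes under both.

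**Figure D1:**
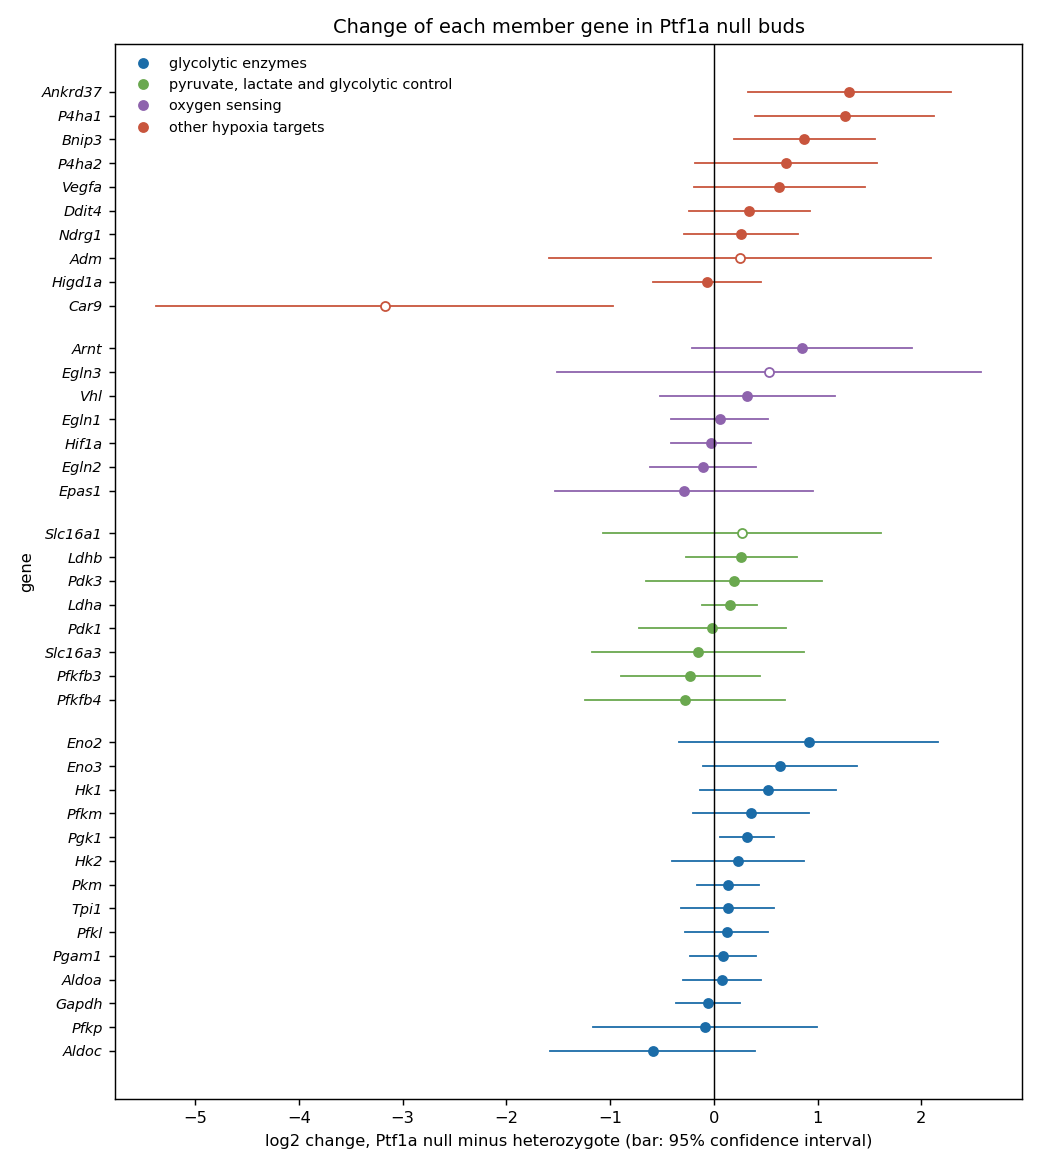
The horizontal axis gives the log2 change of each of the 39 measured members, null minus heterozygote, with its 95% confidence interval from the trended limma fit (2 heterozygote and 3 null arrays), and colours mark the 4 groups of genes. Filled points are genes above background on all 5 arrays and open points are the other 4; the intervals of Ankrd37, P4ha1, Bnip3 and Pgk1 lie above 0 and that of Car9 lies below it, before any adjustment.

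The 14 measured glycolytic enzymes were all above background on every array, and 11 of them had a higher null mean, with a median log2 change of 0.14. That direction depends on the scaling: with median centring 6 of 14 were higher and the median was -0.054. Median centring also moved the median of the 1086 genes with a mean signal of 9 or more from 0.0073 to -0.17 and that of all genes above background from -0.0074 to -0.12, so the enzymes stayed above those medians under both scalings. With an array left out the median ranged from 0.055 without heterozygote array 2 to 0.23 without heterozygote array 1, and it was 0.23 without null array 2 as well. Heterozygote array 2 had the lowest signal of the 5 arrays for 9 of the 14 enzymes and null array 3 the highest for 8.

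Pgk1 encodes phosphoglycerate kinase, the first enzyme of the pathway to yield ATP, and is X-linked. Its signals were 11.56 and 11.78 in heterozygotes and 12.04, 11.91 and 12.00 in nulls, so the nulls lay above both heterozygotes within a narrow range. The means were 11.67 ± 0.15 (SD, n = 2) and 11.99 ± 0.07 (SD, n = 3). This is 1.25-fold higher, a log2 change of 0.32 (SE 0.12), with a limma unadjusted p of 0.0200 and adjusted p of 0.975 in the trended fit. The untrended unadjusted p was 0.386. Its other probe sets, 1438640_x_at and 1439435_x_at, had log2 changes of 0.16 and 0.50. The change was 0.11 with median centring. The pool of each genotype with Xist below background had the lower Pgk1 signal among heterozygotes and the highest among nulls.

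The hexokinases phosphorylate glucose, the first step of the pathway. Hk1, the form found in most cells, had signals of 7.04 and 6.43 in heterozygotes and 7.31, 7.11 and 7.35 in nulls. The null pools were close together and the heterozygote pools 0.61 apart. The means were 6.73 ± 0.43 (SD, n = 2) and 7.25 ± 0.13 (SD, n = 3), a log2 change of 0.52 (SE 0.30) with a limma unadjusted p of 0.110. Its other probe set, 1420901_a_at, had a change of 0.81, also without overlap. The change was 0.21 without heterozygote array 2 and 0.83 without heterozygote array 1. Hk2, a form that insulin and hypoxia raise in many tissues, had signals of 6.85 and 6.65 in heterozygotes and 7.08, 7.00 and 6.87 in nulls, a change of 0.23 (SE 0.30, unadjusted p = 0.440 in limma).

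Phosphofructokinase, which catalyses the main rate-controlling step, has 3 subunit genes. Pfkm, the muscle-type subunit, had 7.69 and 7.28 in heterozygotes and 7.80, 7.76 and 7.97 in nulls, a log2 change of 0.36 that was 0.15 without heterozygote array 2 and 0.56 without heterozygote array 1. The liver-type Pfkl had a change of 0.13 and the platelet-type Pfkp one of -0.088, both with overlapping groups. A dimmer Pfkp probe set, 1437759_at, had -0.54 with all nulls below. The 95% interval for Pfkl ran from -0.28 to 0.53 in the trended fit, so a change as large as that of Pfkm lay within it. Pfkl changed sign with median centring (-0.047).

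Of the middle enzymes other than Pgk1, Aldoc had the lowest change of the 14 and the others had changes of 0.13 or less. Aldoa and Aldoc encode aldolases, which split the 6-carbon sugar; Aldoa had a log2 change of 0.079 and Aldoc, the brain-enriched form, one of -0.59. Aldoc was even in the heterozygotes, at 6.35 and 6.45, and spread over 6.69, 4.98 and 5.78 in the nulls. Its change was -0.17 without null array 2 and -1.02 without null array 1. Tpi1 (triose phosphate isomerase) had 0.13 and Pgam1 (phosphoglycerate mutase) 0.087, with overlapping groups. Aldoa, Tpi1 and Pgam1 turned negative with median centring, at -0.10, -0.061 and -0.11.

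Gapdh, glyceraldehyde phosphate dehydrogenase and a common loading control, was measured by the array's control probe sets. The one at its 3' end had 11.77 and 11.47 in heterozygotes and 11.53, 11.40 and 11.75 in nulls. The means were 11.62 ± 0.22 (SD, n = 2) and 11.56 ± 0.18 (SD, n = 3), a log2 change of -0.059 with a 95% interval of -0.37 to 0.25. The Gapdh groups overlapped.

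Enolase makes phosphoenolpyruvate. Eno2, the neuronal enolase, had signals of 3.79 and 3.73 in heterozygotes and 4.67, 5.28 and 4.08 in nulls, little above background. Its means were 3.76 ± 0.04 (SD, n = 2) and 4.68 ± 0.60 (SD, n = 3), a log2 change of 0.91 (SE 0.58) with a limma unadjusted p of 0.138. The nulls all lay above, but their own spread of 1.21 was larger than the change. Neuron markers were mixed in direction, with 7 of 13 higher and a median of 0.26, and 9 of 13 were above background on all arrays. Their summed linear signal was 1538 to 2133 in heterozygotes and 1765 to 2209 in nulls, and their part in the Eno2 values was not tested. In bulk RNA, fewer cells of a type and less RNA per cell cannot be told apart. Eno3, the muscle enolase, had 8.84 and 7.71 in heterozygotes and 8.37, 8.88 and 9.48 in nulls, a change of 0.64 with overlap. The Eno3 change was 0.071 without heterozygote array 2 and 1.18 without heterozygote array 1. Pkm, pyruvate kinase, had 10.91 and 10.71 against 10.93, 10.95 and 10.97, a change of 0.14. Its nulls lay within 0.037 of each other and its sign turned with median centring (-0.077).

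Among the 8 genes of pyruvate, lactate and glycolytic control, the null mean was higher for 4 and lower for 4, and the median log2 change was 0.069. The groups overlapped for all 8. Ldha, the lactate dehydrogenase subunit that HIF induces, had signals of 11.81 and 11.80 in heterozygotes and 11.99, 11.80 and 12.08 in nulls. The null mean of 11.96 ± 0.14 (SD, n = 3) was 1.11-fold above the heterozygote mean of 11.80, a log2 change of 0.15 with a 95% interval of -0.11 to 0.42. Null array 2 matched the heterozygotes, and with median centring the change was -0.067. Ldhb, the heart-type subunit, had a change of 0.27.

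Pyruvate dehydrogenase kinases inhibit pyruvate dehydrogenase, which feeds pyruvate into the citrate cycle. Pdk1, a HIF target, had signals of 7.69 and 8.26 in heterozygotes and 8.53, 7.33 and 8.03 in nulls, a log2 change of -0.014. Its highest and lowest values were both in nulls. Another of its 4 probe sets, 1434974_at, had a change of 0.68 with all nulls above. Its heterozygote signals, 3.29 and 3.44, were little above background. The probe sets 1423748_at and 1435836_at each had a change of 0.18 with overlap. Pdk3, which is X-linked, had a change of 0.19. Pfkfb3 and Pfkfb4, which make the activator of phosphofructokinase, had -0.23 and -0.28. The lactate carriers Slc16a1 and Slc16a3 had 0.27 and -0.15, with 95% intervals of -1.07 to 1.62 and -1.18 to 0.87.

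Of the 7 genes of oxygen sensing, the null mean was higher for 4 and lower for 3, and the median log2 change was 0.055, or -0.12 with median centring. Hif1a, the oxygen-regulated alpha subunit, had signals of 9.60 and 9.92 in heterozygotes and 9.76, 9.68 and 9.75 in nulls. All nulls lay between the heterozygotes. The means were 9.76 ± 0.23 (SD, n = 2) and 9.73 ± 0.04 (SD, n = 3), a change of -0.029 with a 95% interval of -0.41 to 0.35. HIF1A protein is controlled mainly by its breakdown, which an RNA array does not measure. Another Hif1a probe set, 1431981_at, was above background on 2 null arrays and on no heterozygote array. Its mean null signal was at least 1.40-fold higher, with measured means of 1.38 and 3.65. The groups overlapped, since null array 1 at 2.41 lay below heterozygote array 1 at 2.78.

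Arnt, the constitutive partner of the alpha subunits, had signals of 4.39 and 4.30 in heterozygotes and 5.68, 4.73 and 5.17 in nulls. The means were 4.35 ± 0.06 (SD, n = 2) and 5.20 ± 0.47 (SD, n = 3), a log2 change of 0.85 (SE 0.49) with a limma unadjusted p of 0.109. Groups did not overlap, but of its other 4 probe sets 3 had changes of 0.69, 0.30 and 0.30 and 1425064_at had -0.22. Epas1, which encodes HIF2A and is strong in endothelium, had 6.74 and 5.80 in heterozygotes and 6.37, 4.59 and 6.99 in nulls. Its change of -0.29 was small beside that spread. Of 16 endothelium markers 8 were higher and 8 lower in nulls, with summed linear signals of 450 to 652 in heterozygotes and 355 to 760 in nulls. The defining markers Cdh5 and Kdr were above background on all arrays and Pecam1 on 4, and the part of these cells in the Epas1 values was not tested.

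Vhl, the ubiquitin ligase subunit, had a log2 change of 0.32. The prolyl hydroxylase genes Egln1 and Egln2 had 0.055 and -0.10, with 95% intervals of -0.41 to 0.52 and -0.61 to 0.41. Egln3, the hydroxylase gene that responds most to hypoxia in many cells, had 5.99 and 1.77 in heterozygotes and 4.87, 4.71 and 3.64 in nulls, a change of 0.53. The heterozygotes thus held both its extremes, and its change ranged from -1.56 to 2.63 as single arrays were left out. Its second probe set, 1418648_at, had 1.14 and 3.60 in heterozygotes and 3.63, 4.26 and 4.39 in nulls, a change of 1.73 with all nulls above. The mean over both probe sets was 1.13. At each probe set 1 heterozygote array lay below background. Raising values to background gave a change of -0.23 at the brightest probe set.

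Of the 4 groups, the 10 measured other hypoxia targets had the largest median change. The null mean was higher for 8 and lower for 2, and the median log2 change was 0.49, beside 0.14 for glycolytic enzymes and -0.012 for all genes. Their median stayed positive with median centring (0.41, with 8 of 10 higher) and was 0.26 without heterozygote array 1 and 0.73 without heterozygote array 2, the lowest and highest with an array left out. Relative to each gene's mean over the arrays, the median of the 10 was -0.50 and -0.058 in heterozygotes and 0.14, -0.073 and 0.41 in nulls. Null array 2 lay between the heterozygotes. Heterozygote array 1 had the lowest signal for 6 of the 10.

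Ankrd37, a small ankyrin repeat protein gene and a known HIF target, had signals of 4.33 and 4.24 in heterozygotes and 5.22, 5.86 and 5.69 in nulls. The heterozygotes were within 0.090 of each other and all nulls lay well above them. The means were 4.28 ± 0.06 (SD, n = 2) and 5.59 ± 0.33 (SD, n = 3), which is 2.48-fold higher (log2 change 1.31, SE 0.46). Its limma unadjusted p was 0.0128 in the trended and 0.0191 in the untrended fit, and its adjusted p was 0.975 and 0.754. The change was 1.20 to 1.47 as single arrays were left out and 0.86 with an offset of 16.

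P4ha1 encodes the catalytic subunit of collagen prolyl 4-hydroxylase, which needs oxygen to stabilise collagen. Its signals were 6.17 and 4.88 in heterozygotes and 6.80, 6.68 and 6.88 in nulls, so the nulls were tight and heterozygote array 2 stood low. The means were 5.52 ± 0.91 (SD, n = 2) and 6.79 ± 0.10 (SD, n = 3), which is 2.40-fold higher (log2 change 1.26, SE 0.40; limma unadjusted p = 0.00746). The untrended unadjusted p was 0.0539. The change was 0.62 without heterozygote array 2 and 1.90 without heterozygote array 1. Its second probe set, 1452094_at, had a change of 0.66 without overlap. P4ha2, the paralog, had 5.06 and 5.88 in heterozygotes and 6.29, 6.42 and 5.79 in nulls, a change of 0.70 with overlap. It was 0.28 without heterozygote array 1 and 1.10 without heterozygote array 2.

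Bnip3, a mitochondrial protein that starts mitophagy in low oxygen, had signals of 8.07 and 9.19 in heterozygotes and 9.80, 8.96 and 9.74 in nulls. Null array 2 lay below heterozygote array 2, so the groups overlapped. The means were 8.63 ± 0.80 (SD, n = 2) and 9.50 ± 0.47 (SD, n = 3), which is 1.83-fold higher (log2 change 0.87, SE 0.32; limma unadjusted p = 0.0160). The untrended unadjusted p was 0.167. The change was 0.31 without heterozygote array 1 and 1.44 without heterozygote array 2.

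Car9, a cell surface carbonic anhydrase with a role in pH control, went the other way. Its signal was 4.81 and 4.80 in heterozygotes and 2.67, -0.018 and 2.24 in nulls, below background in all 3 nulls. The heterozygote signal was at least 3.25-fold higher, taking the background level for the nulls. Measured means were 4.81 ± 0.00054 (SD, n = 2) and 1.63 ± 1.44 (SD, n = 3), a log2 change of -3.18 (SE 1.02). Its limma unadjusted p was 0.00794, and its adjusted p was 0.975 in the trended and 0.730 in the untrended fit. Raising values to background gave a change of -1.70, and an offset of 16 gave -1.15.

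Vegfa, the vessel growth factor, had signals of 5.51 and 5.95 in heterozygotes and 6.63, 6.58 and 5.87 in nulls. The means were 5.73 ± 0.31 (SD, n = 2) and 6.36 ± 0.43 (SD, n = 3), a log2 change of 0.63 (SE 0.38) with a limma unadjusted p of 0.122. Null array 3 lay between the heterozygotes, and the second probe set, 1451959_a_at, had a change of 0.058. Ddit4, an inhibitor of mTORC1, had a change of 0.34 and Ndrg1, a stress-induced cytoplasmic protein, 0.26, both with overlap. Ddit4 had 0.084 without null array 3 and 0.52 without null array 2, and Ndrg1 had 0.020 without heterozygote array 1 and 0.50 without heterozygote array 2. Higd1a, a mitochondrial protein, had -0.065 at its brightest probe set and 0.50 and 1.99 at 1416481_s_at and 1448359_a_at. Adm, which encodes the vessel-dilating peptide adrenomedullin, was above background on 2 arrays and had 0.25.

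**Figure D2:**
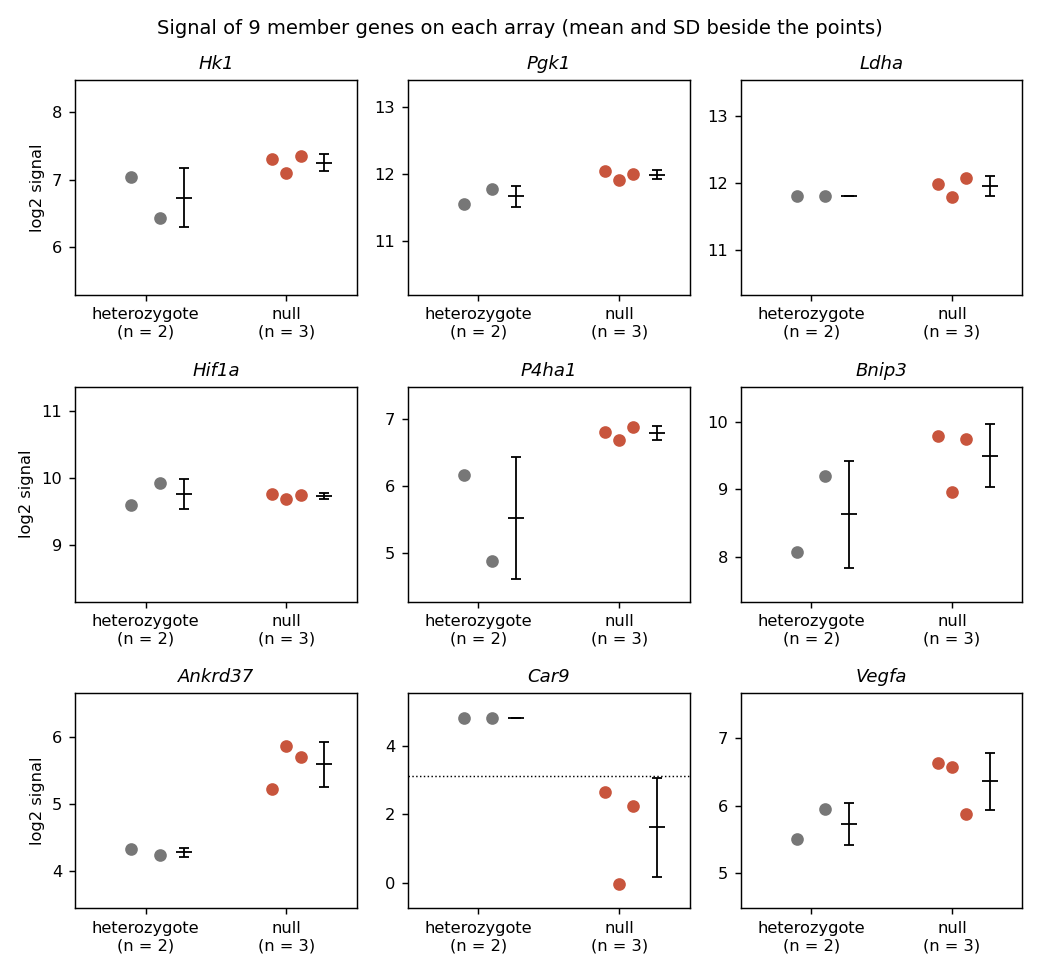
Each panel gives the log2 signal of a member on the 2 heterozygote and 3 null arrays as points, with the group mean and SD beside them and, where it falls within the panel, the mean background level as a dotted line; the vertical scale differs between panels. The nulls lie above both heterozygotes for Hk1, Pgk1, P4ha1 and Ankrd37, overlap them for Ldha, Hif1a, Bnip3 and Vegfa, and lie below background for Car9.

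The promoters of members at both ends of these changes can be set side by side. HIF binds DNA at the core ACGTG or GCGTG, which reads CACGT or CACGC on the other strand. The 250 bases before an annotated transcript start of each gene were taken from RefSeq (GRCm38.p6), with a match for 39 of the 42 members, and searched on both strands, counting overlapping matches. The core was found in at least 1 window of 35 of the 39 (89.7%), beside 41.5% of all 27025 genes. It was found for 23 of 26 measured members higher in nulls and for all 11 measured members lower in nulls that had a window, so both directions held it. A match is a description of these letters and no sign of binding. The members and all genes were not matched for base composition or number of windows. Some members were listed because they are targets of the hypoxia response. The sequences below are of the 4 other targets with the lowest p, of which 3 were higher and 1 lower in nulls, and of the glycolytic genes Pgk1 and Ldha. They run 5′ to 3′ on the gene's strand, and capitals mark the core on either strand.
P4ha1 (chr10:59323046-59323295, + strand): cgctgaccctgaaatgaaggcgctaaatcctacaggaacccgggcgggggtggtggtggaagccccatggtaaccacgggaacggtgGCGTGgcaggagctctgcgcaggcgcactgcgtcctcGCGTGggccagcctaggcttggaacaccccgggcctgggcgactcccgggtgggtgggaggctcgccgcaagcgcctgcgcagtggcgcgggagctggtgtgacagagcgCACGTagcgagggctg
Bnip3 (chr7:138909507-138909756, - strand): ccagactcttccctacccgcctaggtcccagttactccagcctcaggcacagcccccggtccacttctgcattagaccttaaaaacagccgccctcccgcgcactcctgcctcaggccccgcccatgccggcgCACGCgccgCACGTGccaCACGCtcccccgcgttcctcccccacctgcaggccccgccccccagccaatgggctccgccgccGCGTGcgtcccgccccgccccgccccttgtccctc
Ankrd37 (chr8:45999851-46000100, - strand): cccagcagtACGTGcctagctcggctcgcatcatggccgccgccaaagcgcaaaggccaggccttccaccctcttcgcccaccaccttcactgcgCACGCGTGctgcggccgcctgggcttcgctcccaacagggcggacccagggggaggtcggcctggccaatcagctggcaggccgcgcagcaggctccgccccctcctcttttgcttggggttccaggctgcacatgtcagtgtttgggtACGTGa
Car9 (chr4:43506776-43507025, + strand): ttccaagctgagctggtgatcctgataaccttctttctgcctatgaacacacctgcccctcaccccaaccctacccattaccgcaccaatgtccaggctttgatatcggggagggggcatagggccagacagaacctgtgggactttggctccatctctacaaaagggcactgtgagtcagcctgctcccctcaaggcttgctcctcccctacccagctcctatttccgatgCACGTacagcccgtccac
Pgk1 (chrX:106186850-106187099, + strand): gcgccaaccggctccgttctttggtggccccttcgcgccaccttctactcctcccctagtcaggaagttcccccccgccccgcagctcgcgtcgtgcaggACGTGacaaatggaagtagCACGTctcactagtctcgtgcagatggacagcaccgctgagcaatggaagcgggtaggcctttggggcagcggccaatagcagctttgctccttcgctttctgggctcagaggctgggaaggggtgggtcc
Ldha (chr7:46845554-46845803, + strand): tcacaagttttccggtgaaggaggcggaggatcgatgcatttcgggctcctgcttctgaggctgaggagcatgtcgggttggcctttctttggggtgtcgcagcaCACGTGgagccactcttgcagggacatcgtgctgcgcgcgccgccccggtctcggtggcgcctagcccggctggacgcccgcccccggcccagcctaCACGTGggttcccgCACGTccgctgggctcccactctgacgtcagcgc
Pgk1 has 2 matches on opposite strands, the first bases of which lie 150 and 131 bases before the start, and Ldha has 5 matches in the window shown, which is 1 of 2 windows of that gene. Bnip3 also has 5 and Ankrd37 has 4, of which CACGC and GCGTG overlap and the last begins 6 bases before the start. The nearest of the 3 matches in P4ha1 and the sole match in Car9 begin 16 and 18 bases before the start. In Ldha and Bnip3 the palindrome CACGTG counts as a match on each strand. Tpi1 and Eno2 are measured members with no match in this window, as is Vhl.

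Further genes of these pathways gave context. Of 38 further HIF target and pathway genes, 24 were higher in nulls (63.2%, beside 49.1% of all genes) and 14 were lower. Their median log2 change was 0.13. Among the 30 above background on all arrays, 18 were higher, 12 were lower, and the median was 0.049. The trended limma fit called 1 of the 38, beside 0.0330% of all genes. That gene was Slc2a3, which encodes the glucose transporter GLUT3 and brings in the substrate of hexokinase. Its signals were 8.67 and 9.07 in heterozygotes and 10.70, 10.61 and 10.33 in nulls, so it rose by a log2 change of 1.68 (limma adjusted p = 0.00906). In the untrended fit its adjusted p was 0.512. Hmox1, heme oxygenase, named here after its value was seen, had a change of 2.26 with a heterozygote array below background. It was among the 3 genes of this list higher in nulls with an unadjusted p under 0.05 in the trended limma fit. Of all genes, 2.52% were higher with such a p.

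Of 21 genes of pyruvate entry and the citrate cycle, 8 were higher in nulls, 13 were lower, and the median log2 change was -0.12. Neither limma fit called any, and 0 had an unadjusted p under 0.05 in either. The lowest and highest were Pdp1, the phosphatase that reactivates pyruvate dehydrogenase, at -0.78 with all nulls below, and Got1, a cytosolic aminotransferase, at 0.39. Of 13 genes of the pentose phosphate, glycogen and hexose side routes, 6 were higher and 7 lower, with a median of -0.027. Gys1, glycogen synthase, was highest at 0.91 and Gbe1, the glycogen branching enzyme, lowest at -0.57. Of 15 other isozymes and gluconeogenesis genes, 6 were higher, and only 5 were above background on all arrays. Among those 5, Pcx, pyruvate carboxylase, had 0.70 with all nulls above, and Pklr, the liver and red cell pyruvate kinase, had -0.46.

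Markers of other cells were compared between the same pools. The null mean was higher for 23 of 29 mesenchyme markers, and their median log2 change was 0.48. Neither limma fit called any. By the trended fit 4, all higher in nulls, had an unadjusted p under 0.05, beside 2.52% of all genes. By the untrended fit 3 had such a p, beside 4.48% of all genes in either direction. Their summed linear signal was 2614 to 3430 in heterozygotes and 3351 to 3994 in nulls, and 15 were above background on all arrays. Of the markers that define mesenchyme, Col1a1, Col3a1 and Pdgfra were above background on all arrays and Prrx1 on 3. Twist1 was above it on none. Of 16 red cell markers, 14 were lower in nulls, with a median of -0.88 and summed linear signals of 9665 to 12397 in heterozygotes and 8055 to 8977 in nulls. None was called by limma, but by its trended fit 6 that were lower in nulls had an unadjusted p under 0.05, beside 1.95% of all genes. By the untrended fit 2 had such a p, beside 4.48% of all genes in either direction. Hba-x and Hbb-bh1 had -1.31 and -0.81, and Gata1 and Klf1 were above background on all arrays. The part of these cells in the members' values was not tested.

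Array by array, the lists did not move as one. Relative to each gene's mean over the arrays, glycolytic enzymes had medians of 0.0042 and -0.18 in heterozygotes and 0.12, 0.045 and 0.18 in nulls. All nulls thus lay above both heterozygotes, null array 2 by little. These are quantile-normalised values, and with median centring the median change of these enzymes was -0.054, with 6 of 14 higher. The plain median signals of these enzymes overlapped, at 9.24 and 8.58 in heterozygotes and 9.04, 9.18 and 9.65 in nulls. Relative to each gene's mean, the mesenchyme markers had 0.19 and -0.45 in heterozygotes and 0.47, 0.095 and 0.31 in nulls. Heterozygote array 2 was lowest for glycolytic enzymes and for mesenchyme markers, whereas heterozygote array 1 was lowest for the other hypoxia targets. Without heterozygote array 2 the mesenchyme median was -0.038, while that of glycolytic enzymes was 0.055 and that of the other hypoxia targets 0.73. Pancreatic epithelium markers had a summed linear signal of 6403 to 9659 in heterozygotes and 7895 to 10105 in nulls. However, only 5 of 16 were higher in nulls, and their median log2 change was -0.30.

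**Figure D3:**
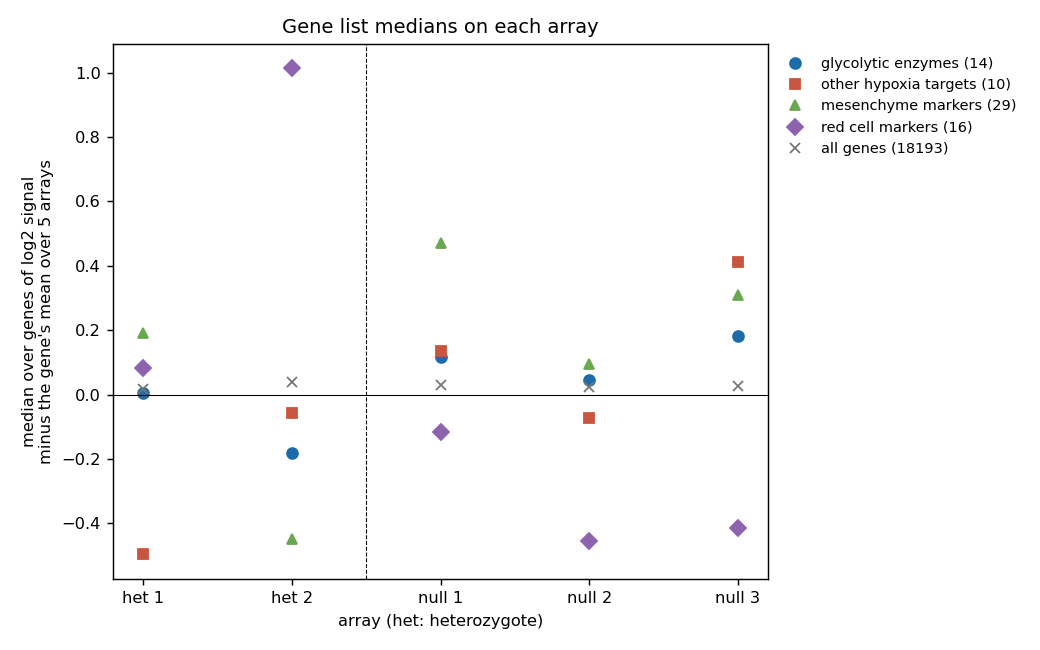
For each array the points give the median over the genes of a list of the log2 signal minus that gene's mean over the 5 arrays, for 14 glycolytic enzymes, 10 other hypoxia targets, 29 mesenchyme markers, 16 red cell markers and all 18193 genes. With quantile normalisation, glycolytic enzymes sit higher in each null than in either heterozygote. Null array 2 (0.045) is close to heterozygote array 1 (0.0042). Other hypoxia targets are lowest on heterozygote array 1 (-0.50), and red cell markers are highest on heterozygote array 2 (1.01).

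The members have 83 probe sets in all, and 66 of these were above background on all arrays. Of the 66, 47 had a higher null mean, and 2 had an absolute log2 change of 1 or more, those of P4ha1 and Ankrd37. Of the other 17 probe sets, 5 had a change that large, those of Car9, Hif1a, Egln3, Adm and Higd1a. Most changes of that size were thus at dim probe sets. Several probe sets above background on all arrays gave the same sign for 12 members: higher in nulls for Hk1, Pfkl, Tpi1, Pgk1, Ldhb, Arnt, P4ha1, Vegfa and Ndrg1, and lower for Pfkp, Pfkfb3 and Hif1a. They gave opposite signs for Aldoa, Gapdh, Pdk1, Egln1, Vhl and Higd1a.

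**Figure D4:**
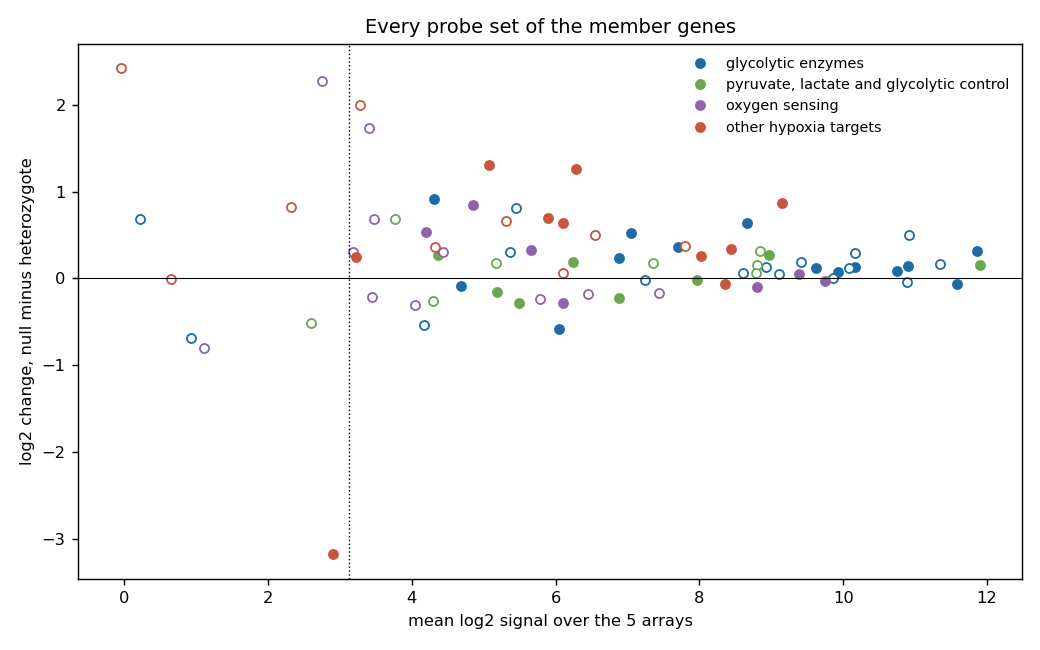
The 83 probe sets of the members are plotted by mean log2 signal over the 5 arrays (horizontal) and log2 change, null minus heterozygote (vertical); filled points are the brightest probe set of each gene, open points are its others, and the dotted line is the mean background level. Changes of 1 or more in size occur at 2 probe sets above background on all arrays and at 5 of the other 17.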

How the data were processed

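RNA from 5 pools of buds was measured on Affymetrix mouse expression arrays. The values deposited by the authors are intensities on a linear scale, 45101 probe sets per array. The submitters' processing notes list GCOS and RMA; versions, their roles and the background correction are not stated there. Array medians differed by up to 0.354 on the log2 scale, so the deposited intensities were put on a log2 scale with no offset and quantile normalised. limma 3.58.1 (R 4.3.3) compared nulls with heterozygotes, with genotype as the sole term, trended and robust eBayes, two-sided p-values, and adjustment by Benjamini-Hochberg over 45037 probe sets (64 controls left out). The spread of log2 values depends on signal, hence the trended fit; it had been an alternative in an earlier analysis whose results were known. The members, lists and tests were likewise chosen with earlier results of these data known. An exact permutation test of 2 against 3 arrays cannot go below 0.1, so none is given.

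Background on each array was the 95th percentile of 27 Bacillus subtilis control probe sets. Where a group lay below it on all arrays, a fold is "at least": the brighter mean against, per array, the higher of background and measured signal. Gene symbols came from the platform annotation, in which 34945 tested probe sets had 1 symbol, 932 several (not named) and 9160 none; 34741 matched RefSeq by gene ID, with 0 names changed. All members are named. Full statistics are given for members with an unadjusted p under 0.05, for those whose groups do not overlap with a change of 0.5 or more, and for Hif1a, Pgk1, Ldha, Gapdh, Vegfa and Car9. Of other lists, called genes or else the highest and lowest above background are named. Probe sets named _x_at or _s_at may hybridise to more than 1 transcript. Alternatives tried were the untrended fit, median centring, an offset of 16, a filter on dim probe sets, values raised to background, the mean of a gene's probe sets, the replicate number as a block and leaving out each array.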

Additional observations from a re-analysis of the deposited data

How the results depend on the processing

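No member was called under any alternative that gave an adjusted p (the mean over probe sets gave none), and 406 of 451 values of a member under an alternative kept the sign of the reported value; 18 of 39 members kept it in all of them, among them Pgk1, Hk1, P4ha1, Bnip3, Ankrd37, Car9, Arnt and Vegfa. Over the whole table the count of called probe sets, 8, was 0 in the untrended fit, 4 with median centring and 44 with values raised to background, and was 0 to 11 with an array left out. With the replicate number as a block it was 79, and the block, in which null array 3 has no partner, called no member. Same-numbered arrays had deviations that correlated at -0.043 for replicate 1 and 0.029 for replicate 2. Both values come from the single difference between the 2 heterozygote arrays. They cannot show whether same-numbered pools shared a litter or a batch. Without a heterozygote array that group has 1 sample, which is assumed to vary like the others. The median of glycolytic enzymes was -0.054 with median centring. Signs also turned with median centring for Pfkl (-0.047), Aldoa (-0.10), Tpi1 (-0.061), Pgam1 (-0.11), Pkm (-0.077), Ldha (-0.067) and Egln1 (-0.12). They turned with the replicate block for Pfkp (0.077), Aldoa (-0.0083) and Egln1 (-0.068), and with the mean over a gene's probe sets for Pfkp (0.018), Gapdh (0.0040), Pdk1 (0.26), Slc16a1 (-0.12), Hif1a (0.47), Egln1 (-0.089) and Higd1a (0.81). With values raised to background they turned for Egln3 (-0.23) and Adm (-0.15), and with the offset of 16 for Egln3 (-0.050). The cause was not tested. With an array left out, changes ranged from -0.27 to 0.078 for Pfkp, -0.0065 to 0.17 for Aldoa, -0.15 to 0.41 for Tpi1, -0.21 to 0.097 for Gapdh, -0.11 to 0.64 for Ldhb and -0.30 to 0.30 for Pdk1. They ranged from -0.089 to 0.49 for Pdk3, -0.77 to 0.22 for Pfkfb4, -0.64 to 1.18 for Slc16a1, -0.44 to 0.12 for Slc16a3, -0.18 to 0.14 for Hif1a and -0.79 to 0.41 for Epas1. They ranged from -0.069 to 0.25 for Egln1, -0.44 to 0.23 for Egln2, -1.56 to 2.63 for Egln3, -0.63 to 1.12 for Adm and -0.26 to 0.13 for Higd1a. Without a turn of sign, changes moved by over 1.5 times for Hk2 (0.13 to 0.34), Pfkl (0.024 to 0.23), Pgk1 (0.21 to 0.42), Pgam1 (0.0032 to 0.13), Pkm (0.039 to 0.23), Ldha (0.090 to 0.22), Pfkfb3 (-0.33 to -0.057), Vhl (0.13 to 0.51) and Vegfa (0.41 to 0.88). Car9 had no value with dim probe sets left out. Dim signal limits Car9, Adm, Egln3 and Slc16a1, which were not above background on every array.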
